A study of Mus musculus with 18 samples.

Results

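The genes described here encode splicing factors, proteins that bind RNA while introns are being removed: the SR proteins, the hnRNP proteins, the Luc7-like proteins and 6 SR-related proteins. They were taken by name. Every gene whose symbol starts with Srsf (10 genes, the SR proteins) or Hnrnp (19 genes) was taken, together with 3 Luc7-like genes (Luc7l, Luc7l2 and Luc7l3) and with Rbm25, Rbm39, Son, Pnisr, Tra2a and Tra2b. This gave 38 genes of the 18193 that had a probe set of their own on the array. Where a gene had several probe sets, the one with the greatest 18-array mean stands for it, and no filter on low values was used, so all 38 were tested. Srsf7 and Hnrnpa3 also meet the rule by name and were not analysed here; the 4 probe sets of Hnrnpa3 are shared with another symbol.

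Lungs of BALB/c mouse fetuses were compared at gestational day (GD) 17 and GD18 in males exposed to flutamide (17 flut and 18 flut), males (17 m and 18 m) and females (17 f and 18 f). The dams of the exposed males were injected under the skin with flutamide, an antagonist of the androgen receptor, at 1 mg per day from GD10 until the day before the lungs were taken, and the other dams were injected with the vehicle. Each group had 3 arrays, and each array carried a pool of lung RNA from 3 fetuses of 1 sex from distinct litters. The samples hold no females exposed to flutamide. Values are log2 of the normalized intensity, and a gene is called higher or lower where its adjusted p in a limma model of all 18 arrays is under 0.05. Because the RNA is from whole lungs, fewer cells of a type and less RNA per cell cannot be told apart. The comparisons share groups: the 17 m arrays enter 17 flut minus 17 m, 17 m minus 17 f and 18 m minus 17 m, and the 18 m arrays are shared in the same way.

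SR proteins bind enhancers in exons through RNA recognition motifs and recruit the spliceosome through domains rich in arginine and serine, while many hnRNP proteins bind silencers and oppose the use of a splice site. The Luc7-like proteins are counterparts of a yeast protein of the U1 snRNP, the particle that recognises the start of an intron. Many SR genes also make a transcript with an extra exon that leads to its decay, and probe sets of 1 gene can read different transcripts.

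Several pools stood apart from the others of their group. Transcripts of exocrine pancreas were high in 17 m 3, 17 f 2 and 17 f 3, where the mean deviation of the 12 measured pancreas markers from their 18-array means was 2.74, 3.31 and 3.26, against -0.91 to -0.45 in the other 15 pools. Liver markers (13 measured) were highest in 18 m 3, at 3.35, and this pool also had the largest gap between the 3' and 5' control probe sets of Gapdh, 0.39 against -0.27 to -0.14 in the other 17 pools. Xist, the RNA of the inactive X chromosome, was at 11.95 in 18 flut 3, against 8.15 and 8.08 in the other pools of 18 flut and 12.33 to 12.51 in 18 f, and the Y-linked Kdm5d was at 7.11 in that pool, against 8.53 and 8.29. The lung label was borne out by Sftpc, the surfactant protein C of type II cells, at 13.92 to 14.72 in the 18 pools, while Nkx2-1, a lung transcription factor, was at 5.77 to 6.63, near the array medians of 6.338 to 6.403.

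**Figure D1:**
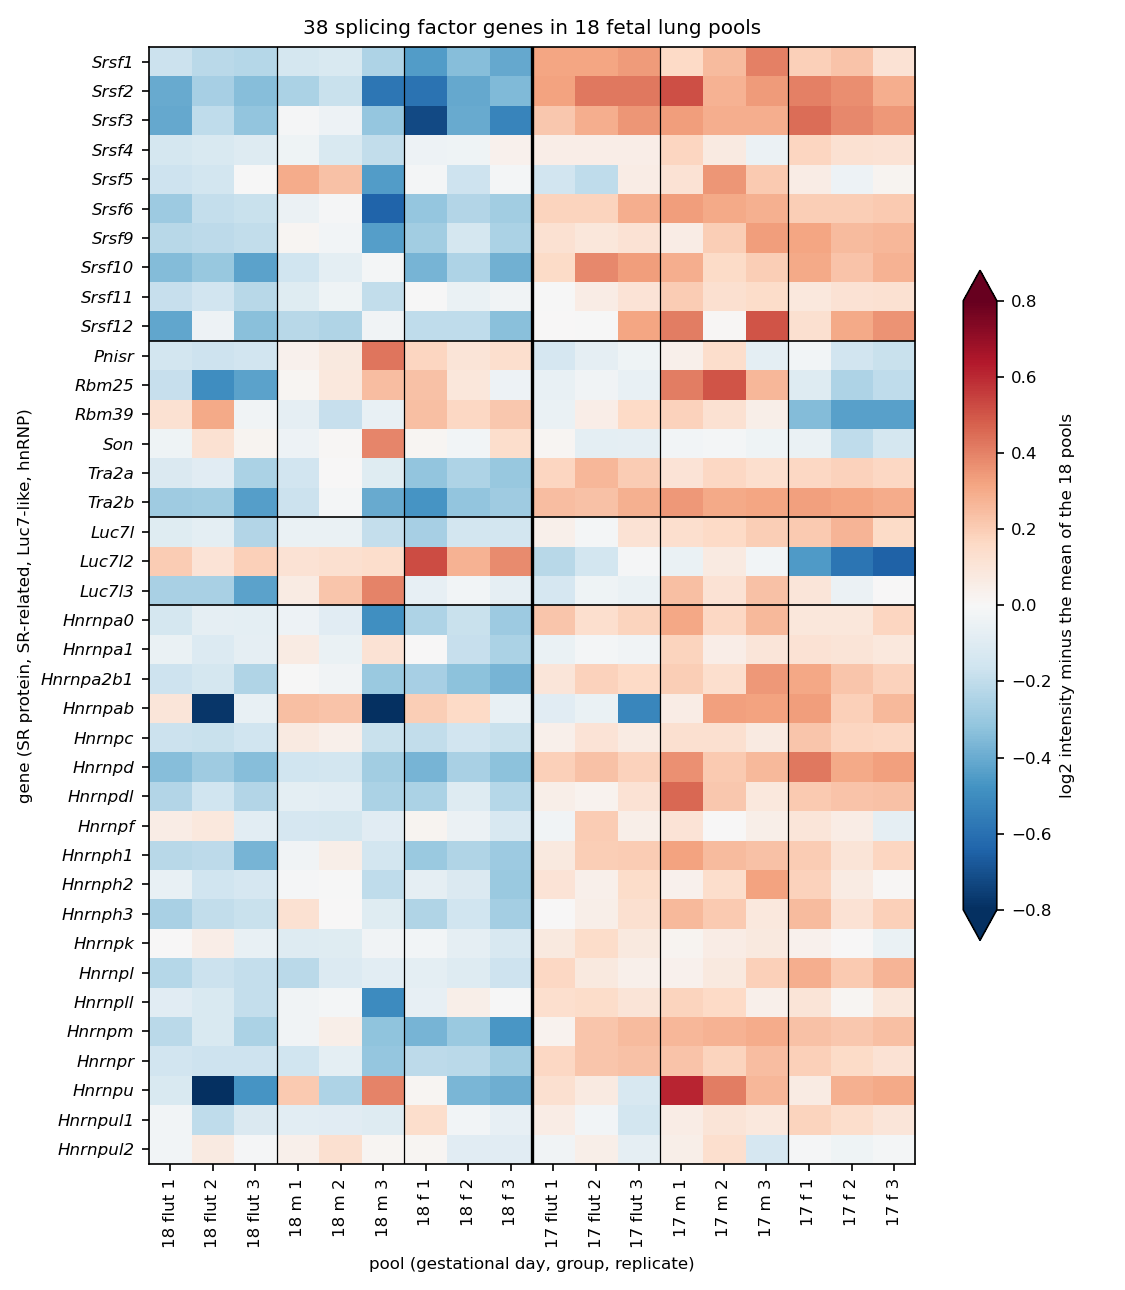
Each row is a gene, each column a pool, and the colour is the log2 intensity minus the gene's mean over the 18 pools, cut at 0.8 in either direction. Most SR and hnRNP rows are blue in the 9 GD18 pools at the left and red in the 9 GD17 pools at the right, and Luc7l2, Rbm39 and Rbm25 do not follow that pattern.

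Most of the splicing factors had lower RNA at GD18 than at GD17. Of the 38, 21 were called lower and 1 higher in 18 flut minus 17 flut, 23 lower and 0 higher in 18 m minus 17 m, and 22 lower and 4 higher in 18 f minus 17 f. Over all genes tested the same rule called 13.8% lower and 13.0% higher in 18 flut minus 17 flut, 12.4% lower and 17.7% higher in 18 m minus 17 m, and 22.5% lower and 17.2% higher in 18 f minus 17 f. The median log2 difference of the 38 genes was -0.27, -0.27 and -0.37 in flutamide-exposed males, males and females, beside -0.01, 0.03 and -0.01 over all genes. These 3 comparisons share no array, but they share 1 estimate of each gene's spread and so are not independent repeats. Of the 38 genes, 16 were called lower in all 3, beside 8.64% of all genes. Some of these calls did not hold with 1 pool left out. In 18 flut minus 17 flut, those of Hnrnpa0 and Srsf9 were lost in all 6 such fits and that of Hnrnpdl in 4. Fitted with only the 2 groups compared, the count in 18 m minus 17 m was 6.

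Among the SR proteins, 7 of 10 were called lower in flutamide-exposed males, 9 in males and 7 in females, and 6 (Srsf1, Srsf2, Srsf3, Srsf6, Srsf9 and Srsf10) in all 3. Srsf2, an SR protein that acts in both splicing and the release of paused polymerase, was at 11.66, 11.80 and 11.73 in 18 flut, against 12.39, 12.49 and 12.49 in 17 flut. Its values were 11.82, 11.89 and 11.49 in 18 m, against 12.58, 12.35 and 12.41 in 17 m, and 11.47, 11.66 and 11.71 in 18 f, against 12.47, 12.44 and 12.36 in 17 f. In each pair every GD18 pool lay below every GD17 pool, and the log2 differences were -0.73, -0.71 and -0.81 (SE 0.0967 each), with adjusted p = 5.75e-05, 6.55e-05 and 6.75e-06.

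Srsf1, the founding SR protein, was at 12.19, 12.15 and 12.14 in 18 flut, against 12.68, 12.68 and 12.70 in 17 flut. In males it was at 12.23, 12.24 and 12.12 at GD18, against 12.52, 12.62 and 12.77 at GD17, and in females at 11.92, 12.02 and 11.96 at GD18, against 12.56, 12.59 and 12.48 at GD17. No GD18 pool reached a GD17 pool of its own group, with log2 differences of -0.53, -0.44 and -0.58 (SE 0.066). Srsf10, an SR protein that can also repress splicing, was at 9.56, 9.61 and 9.48 in 18 flut, against 10.07, 10.30 and 10.25 in 17 flut. It stood at 9.75, 9.83 and 9.89 in 18 m, against 10.20, 10.06 and 10.11 in 17 m, and at 9.54, 9.66 and 9.53 in 18 f, against 10.21, 10.14 and 10.19 in 17 f. The groups did not overlap between days, and the differences were -0.65, -0.30 and -0.61 (SE 0.0708), all called lower.

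Srsf3, the smallest SR protein, which also takes part in mRNA export, had the largest fall in females among the 38 probe sets of highest mean. It was at 11.72, 11.92 and 11.81 in 18 flut, against 12.34, 12.42 and 12.48 in 17 flut, at 12.12, 12.09 and 11.82 in 18 m, against 12.46, 12.42 and 12.42 in 17 m, and at 11.40, 11.72 and 11.60 in 18 f, against 12.57, 12.51 and 12.48 in 17 f. No pools of the 2 days overlapped within a group. The log2 differences were -0.60, -0.42 and -0.94 (SE 0.0904), and GD18 females had 0.52 times the GD17 intensity. Srsf6 and Srsf9 were also called lower in all 3 groups, with differences of -0.43, -0.54 and -0.47 for Srsf6 (SE 0.115) and -0.32, -0.35 and -0.50 for Srsf9 (SE 0.0979). Srsf11 was called lower in flutamide-exposed males (-0.24) and males (-0.27), Srsf12, at 3.85 to 4.42 in the group means, in males (-0.47) and females (-0.51), and Srsf4 in males (-0.18). Srsf5, which had 1 probe set, was not called on any day comparison: it was at 11.70, 11.71 and 11.86 in 18 flut, against 11.71, 11.65 and 11.92 in 17 flut, at 12.15, 12.09 and 11.41 in 18 m, against 11.98, 12.21 and 12.07 in 17 m, and at 11.84, 11.69 and 11.85 in 18 f, against 11.92, 11.82 and 11.88 in 17 f, with overlapping pools in all 3 groups and 18 m 3 far below the others.

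Among the hnRNP proteins, 10 of 19 were called lower in flutamide-exposed males, 10 in males and 12 in females, none was called higher, and 8 (Hnrnpa0, Hnrnpa2b1, Hnrnpd, Hnrnpdl, Hnrnph1, Hnrnpl, Hnrnpm and Hnrnpr) were called lower in all 3. Hnrnpd, also known as AUF1, which binds AU-rich elements and speeds mRNA decay, was at 11.59, 11.64 and 11.59 in 18 flut, against 12.12, 12.16 and 12.11 in 17 flut. It was at 11.77, 11.78 and 11.65 in 18 m, against 12.30, 12.14 and 12.19 in 17 m, and at 11.56, 11.67 and 11.60 in 18 f, against 12.35, 12.23 and 12.26 in 17 f. The days were well apart in each group, with log2 differences of -0.52, -0.47 and -0.67 (SE 0.0615) and adjusted p = 2.03e-05, 4.29e-05 and 5.48e-07.

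Hnrnph1, which binds runs of G, was at 11.75, 11.76 and 11.60 in 18 flut, against 12.05, 12.17 and 12.18 in 17 flut, at 11.95, 12.02 and 11.83 in 18 m, against 12.30, 12.23 and 12.21 in 17 m, and at 11.68, 11.74 and 11.68 in 18 f, against 12.18, 12.08 and 12.15 in 17 f. Each GD18 pool was below the GD17 pools of its group, with differences of -0.43, -0.31 and -0.44 (SE 0.0667). Hnrnpf, Hnrnpk, Hnrnpul1 and Hnrnpul2 were not called on any day comparison on their probe sets of highest mean, with differences between -0.18 and 0.05. Of the 4 probe sets of Hnrnpf, 1, 2 and 2 were called lower in flutamide-exposed males, males and females. Of the 4 of Hnrnpk, 1 was called lower in each. In the fit on the mean of all probe sets, Hnrnpf was called lower in all 3 groups, Hnrnpk in flutamide-exposed males and Hnrnpul1 in males. Hnrnpab and Hnrnpu were not called either on their probe sets of highest mean, whose pools were widely spread (SE 0.25 for Hnrnpab and 0.197 for Hnrnpu). Other probe sets of both genes were: of the 7 of Hnrnpab, 5, 6 and 5 were called lower in flutamide-exposed males, males and females, and of the 5 of Hnrnpu, 3, 2 and 2. With the mean of all probe sets both genes were called lower in the 3 groups, at -0.39, -0.59 and -0.67 for Hnrnpab and -0.36, -0.18 and -0.30 for Hnrnpu.

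The SR-related and Luc7-like genes split. Tra2a and Tra2b, counterparts of the fly splicing regulator transformer-2, were called lower in all 3 groups on their probe sets of highest mean. In flutamide-exposed males, males and females the differences were -0.37, -0.22 and -0.46 for Tra2a and -0.59, -0.52 and -0.67 for Tra2b. With the mean of all its probe sets, Tra2a differed by 0.10 in flutamide-exposed males and 0.41 in females, and its call in males was lost. Luc7l2, Rbm39, Rbm25 and Pnisr were called higher at GD18 in females, and the first of these also in flutamide-exposed males. With 1 pool left out, the female call was lost in 5 of 6 fits for Pnisr and in 4 for Rbm25. For Luc7l2 and Rbm39 it held in all 6. Luc7l3 was called lower in flutamide-exposed males (-0.24, adjusted p = 0.0404) and differed by 0.03 in males and by -0.07 in females. Son, a large scaffold protein of nuclear speckles, had differences of 0.08, 0.14 and 0.18 and was not called.

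**Figure D2:**
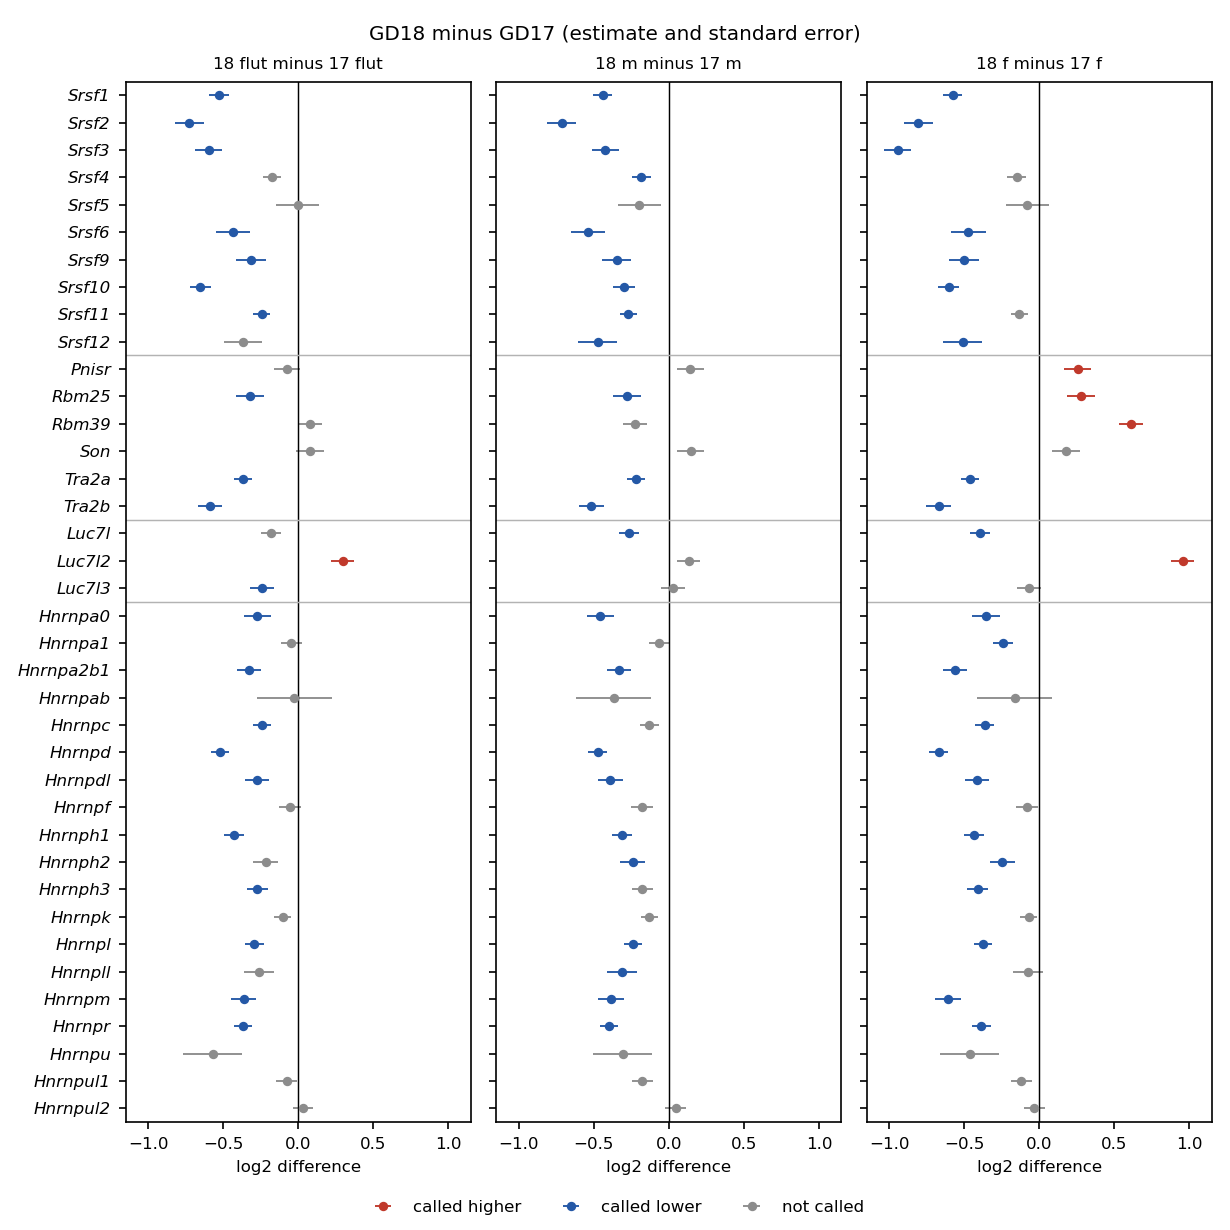
Points are the log2 difference of GD18 minus GD17 for each gene in flutamide-exposed males (left), males (middle) and females (right), and bars are the standard error of the model. Points lie left of 0 for most SR and hnRNP genes in all 3 panels, and Luc7l2 is at 0.30, 0.13 and 0.95.

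The rest of the splicing machinery was counted in the same way. Of 36 measured core spliceosome genes, 25 were called lower in 18 flut minus 17 flut, 24 in 18 m minus 17 m and 28 in 18 f minus 17 f, and 0 higher. Snrpa1, a protein of the U2 snRNP, differed by -0.87, -0.73 and -1.13, and Eftud2, a GTPase of the U5 snRNP, by -0.53, -0.65 and -0.88. Of the 9 kinases that phosphorylate SR proteins or act beside them, 2, 1 and 2 were called lower and 3, 3 and 2 higher, with Srpk1 at -0.46, -0.44 and -0.57 and Clk1 at 0.42, 0.26 and 0.54. Among 26 genes of nuclear speckles and related proteins, 9, 8 and 8 were called lower and 1, 2 and 4 higher. Among 27 other regulators, 13, 11 and 12 were lower and 2, 3 and 7 higher, with the epithelial regulator Esrp2 0.76 higher in 18 m minus 17 m.

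Markers of dividing cells moved in the same direction as the SR proteins. All 17 were called lower in 18 flut minus 17 flut and in 18 f minus 17 f, and 14 in 18 m minus 17 m, with medians of -0.84, -1.02 and -0.62. Their mean deviation per pool was -0.67 to -0.45 in 18 flut, -0.37 to 0.01 in 18 m and -0.68 to -0.36 in 18 f, against 0.26 to 0.34, 0.44 to 0.54 and 0.43 to 0.50 at GD17. Lung markers moved the other way, with 6, 7 and 7 of 11 called higher. In 18 m 3 the SR protein deviation was -0.31, against -0.06 in both other pools of 18 m, and the dividing cell deviation was -0.37, against 0.00 and 0.01. Without 18 m 3 and 18 flut 3, 20 of the 38 splicing factors were called in 18 flut minus 17 flut, 20 in 18 m minus 17 m and 27 in 18 f minus 17 f. Of the 12 pancreas markers, 10 were called lower in 18 f minus 17 f. With an indicator for 17 m 3, 17 f 2 and 17 f 3 in the model, 24 splicing factors were called in 18 m minus 17 m. In 18 f minus 17 f 23 were called, 2 of them higher, with Pnisr and Rbm25 no longer among them. The part of the dividing cell, lung and pancreas markers in the splicing factor result was not tested.

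The sequences before the genes were examined because many of the 38 moved together. RefSeq promoter windows (GRCm38.p6, 250 bases before to 50 after a start site) were found for 34 of the 38 genes, 47 windows in all. Windows are shown for Srsf3 (chr17:29032410-29032709, plus strand), with the largest fall in females, Hnrnpd (chr5:99978889-99979188, minus strand), with the smallest adjusted p of the hnRNP genes in all 3 day comparisons, and Luc7l3 (chr11:94321914-94322213, minus strand), which had the largest called flutamide difference. These rankings use the probe sets of highest mean. Capitals mark 4 motifs searched on both strands: TATAAA (the TATA box), CCAAT (bound by NF-Y), GGGCGG (bound by Sp1) and AGAACA (a hexamer that the androgen receptor binds).
Srsf3: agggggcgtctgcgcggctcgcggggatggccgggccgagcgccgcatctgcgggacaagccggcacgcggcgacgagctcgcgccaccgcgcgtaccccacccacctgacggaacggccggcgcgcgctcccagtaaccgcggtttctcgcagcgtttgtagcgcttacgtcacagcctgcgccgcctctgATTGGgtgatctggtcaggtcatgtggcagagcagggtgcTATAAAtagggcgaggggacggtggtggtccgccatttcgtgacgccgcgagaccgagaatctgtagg
Hnrnpd: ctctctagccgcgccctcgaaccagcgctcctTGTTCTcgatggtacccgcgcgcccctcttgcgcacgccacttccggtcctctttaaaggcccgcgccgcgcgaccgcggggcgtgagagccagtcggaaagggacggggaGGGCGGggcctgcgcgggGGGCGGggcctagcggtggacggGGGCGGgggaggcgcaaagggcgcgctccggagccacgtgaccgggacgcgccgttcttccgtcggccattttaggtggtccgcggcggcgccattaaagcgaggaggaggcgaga
Luc7l3: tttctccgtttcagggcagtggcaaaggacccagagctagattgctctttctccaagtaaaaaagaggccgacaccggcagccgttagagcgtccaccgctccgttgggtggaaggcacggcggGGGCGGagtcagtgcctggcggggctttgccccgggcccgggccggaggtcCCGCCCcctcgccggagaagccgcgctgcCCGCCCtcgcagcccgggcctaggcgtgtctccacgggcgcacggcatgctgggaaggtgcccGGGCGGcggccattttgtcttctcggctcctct
The Srsf3 window holds CCAAT on the minus strand at bases 193 to 197 and TATAAA at bases 233 to 238, counted from the 5' end with the start site at base 251. That of Hnrnpd holds 3 copies of GGGCGG and 1 of AGAACA, the latter on the strand opposite to the one printed. That of Luc7l3 holds 4 copies of GGGCGG in either orientation. Of the 47 windows, 35 (74.5%) held GGGCGG, beside 35.7% of the 32851 windows in the table, 24 (51.1%) held CCAAT, beside 37.4%, 5 (10.6%) held TATAAA, beside 13.6%, and 4 (8.5%) held AGAACA, beside 19.0%. The motifs do not overlap in their letters, a match is a run of letters and not a shown binding site, and windows of 1 gene can share bases.

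Flutamide was set against vehicle in males to ask which genes respond to blocked androgen action. At GD17, 1 of the 38 genes, Rbm25, was called lower in 17 flut minus 17 m and 0 higher, beside 1.00% of all genes called lower and 1.69% called higher, and the median difference was -0.08, beside 0.04 over all genes. At GD18, 4 genes (Luc7l3, Rbm25, Srsf10 and Pnisr) were called lower in 18 flut minus 18 m and 0 higher, beside 3.67% lower and 0.555% higher over all genes, and the median was -0.07, beside 0.00. Of the 17 markers of dividing cells, 3 were called lower in 17 flut minus 17 m (median -0.10) and 7 in 18 flut minus 18 m (median -0.25), with all 17 estimates lower at GD18. Of the 11 lung markers, 1 was called higher at GD17 and 0 at GD18 (2 at an unadjusted p under 0.05), with 10 estimates higher on each day. The part of these markers in the flutamide differences was not tested.

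Rbm25, an SR-related protein that associates with the U1 snRNP and regulates the splicing of Bcl2l1, was lower with flutamide on both days. It was at 10.49, 10.52 and 10.48 in 17 flut, against 10.96, 11.05 and 10.81 in 17 m. At GD18 it was at 10.36, 10.05 and 10.12 in 18 flut, against 10.56, 10.63 and 10.80 in 18 m. The pools did not overlap on either day. Flutamide-exposed males had 0.737 times the male intensity at GD17 (log2 difference -0.44, SE 0.0939, adjusted p = 0.019) and 0.715 times at GD18 (log2 difference -0.48, adjusted p = 0.00764). The GD17 call rested on all but 1 of the pools: it was lost when any of 17 flut 1, 17 flut 2, 17 flut 3, 17 m 1 or 17 m 2 was left out.

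Luc7l3, which shares an arginine and serine rich end with the SR proteins, had the largest called flutamide difference among the 38 probe sets of highest mean. At GD18 it was at 10.37, 10.37 and 10.20 in 18 flut, against 10.69, 10.85 and 11.03 in 18 m, with no overlap. The flutamide-exposed males had 0.686 times the male intensity (log2 difference -0.54, SE 0.0795, adjusted p = 7.9e-04). At GD17 it was at 10.50, 10.59 and 10.58 in 17 flut, against 10.87, 10.75 and 10.86 in 17 m, again without overlap, and the difference of -0.27 was not called (adjusted p = 0.0706).

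The other GD18 calls were smaller. Srsf10 was lower in 18 flut than in 18 m, with a difference of -0.27 (SE 0.0708, adjusted p = 0.0396), from the pools given above, which did not overlap. Only its probe set of highest mean was called, and the call was lost with the mean of all its probe sets. At GD17 Srsf10 differed by 0.08 and its pools overlapped. Pnisr, an SR-related protein of nuclear speckles, was at 9.50, 9.48 and 9.50 in 18 flut, against 9.69, 9.73 and 10.08 in 18 m, and 18 m 3 was well above the other male pools. Its difference was -0.33 (SE 0.0885, adjusted p = 0.0451), and at GD17 it was at 9.52, 9.58 and 9.62 in 17 flut, against 9.69, 9.79 and 9.57 in 17 m, with overlap and a difference of -0.11.

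Because 18 m 3 and 18 flut 3 stood apart, the model was fitted again without both. Pool 18 flut 2, which was also high in liver transcripts, was kept. Luc7l3 stayed called lower in 18 flut minus 18 m (-0.40, adjusted p = 0.0116). Rbm25 was then at -0.39 (adjusted p = 0.0643), Srsf10 at -0.21 (adjusted p = 0.18) and Pnisr at -0.21 (adjusted p = 0.152), none of them called. Srsf5 and Hnrnpc were then called lower, at -0.42 (adjusted p = 0.0287) and -0.23 (adjusted p = 0.0478), and Rbm39 higher at 0.34 (adjusted p = 0.0413), so that the count was again 4 but shared only Luc7l3. With only the groups compared in the fit, none of the 38 genes was called in 18 flut minus 18 m (7 at an unadjusted p under 0.05).

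No gene of the 38 was called in the interaction of flutamide with day (0.0879% of all genes called higher and 0.0824% lower), where 1 was higher and 2 lower at an unadjusted p under 0.05. The difference between the flutamide differences of the 2 days was -0.04 for Rbm25 (SE 0.133, adjusted p = 0.936) and -0.27 for Luc7l3 (SE 0.113, adjusted p = 0.351).

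**Figure D3:**
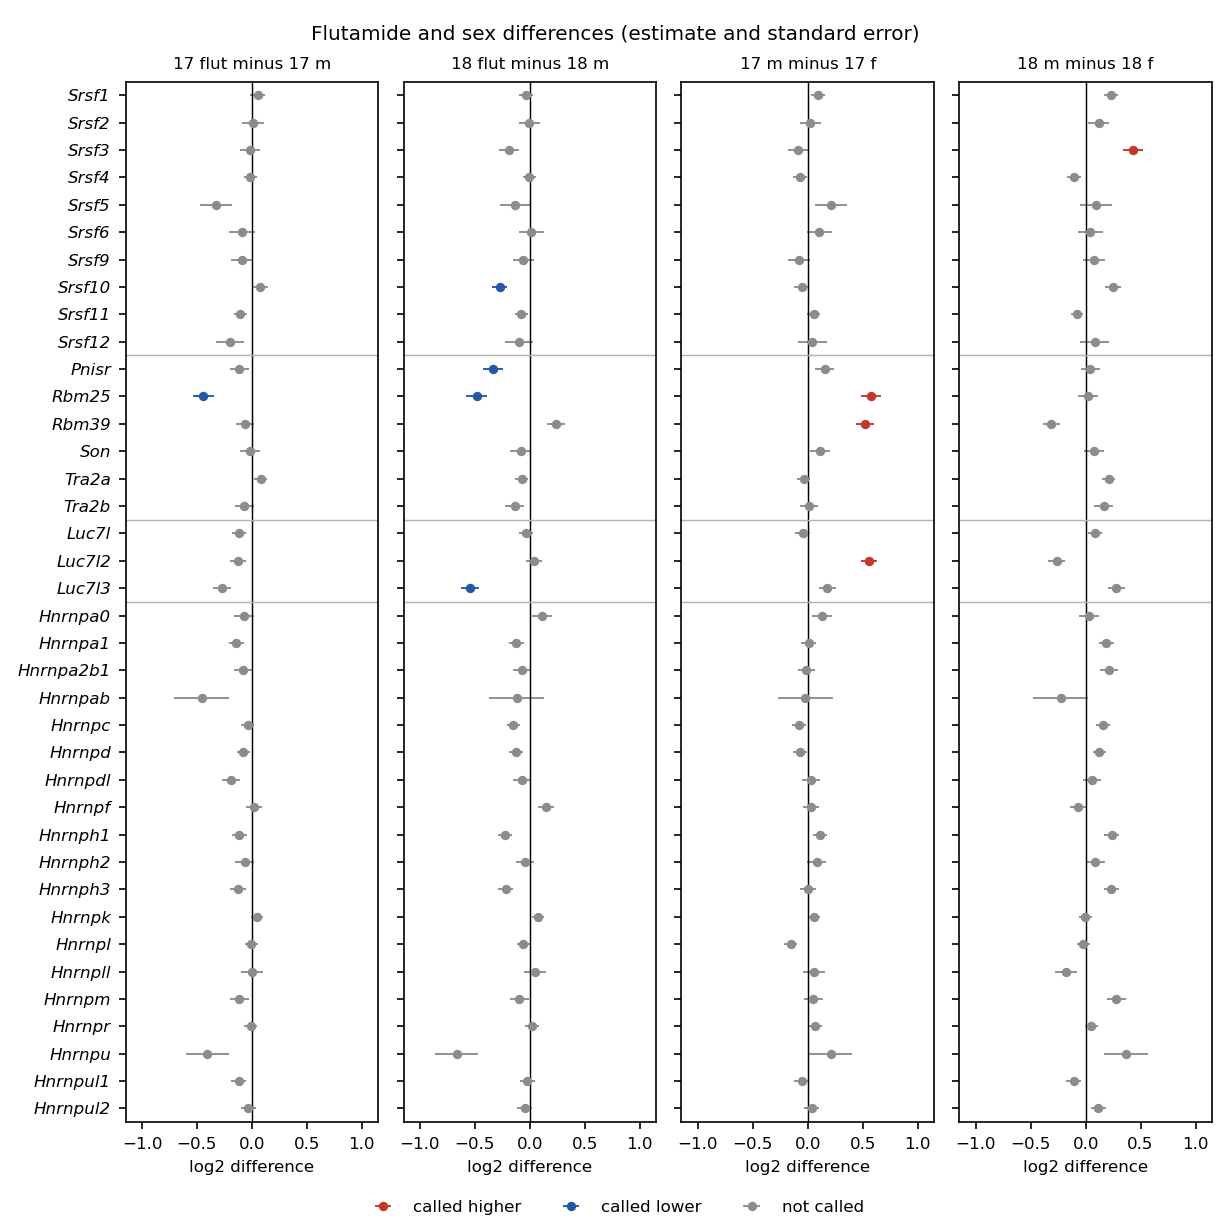
Points are log2 differences for each gene and bars the standard error of the model: 17 flut minus 17 m, 18 flut minus 18 m, 17 m minus 17 f and 18 m minus 18 f from left to right. Coloured points are the called genes: Rbm25 in the first panel, 4 genes in the second, Luc7l2, Rbm25 and Rbm39 in the third, and Srsf3 in the fourth.

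Males were set against females to find sex differences around the surge of surfactant. At GD17, 3 of the 38 genes (Luc7l2, Rbm39 and Rbm25) were called higher in 17 m minus 17 f and 0 lower, beside 0.929% of all genes called higher and 0.742% called lower, and the median was 0.04, beside -0.05. At GD18, 1 gene, Srsf3, was called higher in 18 m minus 18 f and 0 lower, beside 1.43% higher and 0.242% lower over all genes, with a median of 0.08, beside 0.02. All 17 markers of dividing cells had higher estimates in 18 m than in 18 f, 5 of them called (median 0.27), and all 13 liver markers did, none called and 9 at an unadjusted p under 0.05 (median 2.41). At GD17 none of these 30 markers was called (4 at an unadjusted p under 0.05), and the medians were -0.02 for dividing cells and -1.44 for liver. The part of these markers in the sex differences was not tested.

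Luc7l2, a Luc7-like protein of the U1 snRNP, was at 12.24, 12.37 and 12.28 in 17 m, against 11.85, 11.71 and 11.65 in 17 f. Males were above females in every pool, at 1.47 times the female intensity (log2 difference 0.56, SE 0.0755, adjusted p = 4.47e-04). At GD18 the order was the other way, with 12.42, 12.43 and 12.44 in 18 m and 12.82, 12.58 and 12.68 in 18 f, also without overlap. That difference of -0.26 was not called (adjusted p = 0.0861). The change of the sex difference between days was itself called (interaction -0.82, SE 0.107, adjusted p = 2.33e-04). In females Luc7l2 was 1.94 times higher at GD18 than at GD17 (0.95 on the log2 scale, adjusted p = 1.75e-07), and in males the difference was 0.13 (adjusted p = 0.239). In flutamide-exposed males it was at 12.50, 12.41 and 12.49 at GD18, against 12.07, 12.15 and 12.29 at GD17, a difference of 0.30 (adjusted p = 0.00946). Luc7l2 had 8 probe sets, and only some were called in 17 m minus 17 f and in the interaction, as was so for Rbm39 and Rbm25. Probe set 1423251_at of Luc7l2 was at 10.44, 10.57 and 10.53 in 17 m, against 10.46, 10.47 and 10.52 in 17 f, with overlap. With the mean of all probe sets the 3 genes were still called in 17 m minus 17 f.

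Rbm39, also known as CAPER alpha, a U2AF-related splicing factor that is also a coactivator of nuclear receptors, showed the same order. It was at 11.43, 11.37 and 11.30 in 17 m, against 10.90, 10.81 and 10.82 in 17 f, with males above females by 0.52 (SE 0.0803, adjusted p = 0.00116). At GD18 it was at 11.18, 11.06 and 11.19 in 18 m, against 11.49, 11.42 and 11.46 in 18 f, so that every male pool was below every female pool (difference -0.31, adjusted p = 0.0584). The interaction was -0.83 (SE 0.114, adjusted p = 3.32e-04). In flutamide-exposed males it was at 11.37, 11.55 and 11.22 at GD18, against 11.20, 11.30 and 11.41 at GD17, with overlapping pools and a difference of 0.08.

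Rbm25 was higher in 17 m, from the values given above, than in 17 f, where it was at 10.45, 10.30 and 10.34. The groups did not overlap, and males had 1.49 times the female intensity (0.57 on the log2 scale, SE 0.0939, adjusted p = 0.00183). In 18 f it was at 10.78, 10.64 and 10.51, overlapping 18 m (difference 0.02, adjusted p = 0.955), and the interaction was -0.55 (SE 0.133, adjusted p = 0.0191). Between days it was called lower in flutamide-exposed males (-0.32) and in males (-0.28) and higher in females (0.28). These 3 calls were near the threshold: with 1 pool left out they were lost in 5 of 6, 4 of 6 and 4 of 6 fits, and with the mean of all probe sets the female difference was -0.06 (adjusted p = 0.6).

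Srsf3 was higher in 18 m than in 18 f, with 18 m 3 the male pool nearest to the females, and the difference was 0.43 (SE 0.0904, adjusted p = 0.0249). At GD17 the male pools were all below the female pools, with a difference of -0.09 (adjusted p = 0.704), and the interaction was called (0.52, SE 0.128, adjusted p = 0.0224). These 4 genes were those called in the interaction of sex with day, 1 higher and 3 lower, beside 3.89% of all genes higher and 0.885% lower. Luc7l3 was at 10.73, 10.59 and 10.63 in 17 f and at 10.56, 10.61 and 10.56 in 18 f, below males in every pool on both days, with differences of 0.18 and 0.28 that were not called. Pnisr was at 9.63, 9.50 and 9.47 in 17 f and at 9.83, 9.76 and 9.79 in 18 f, overlapping males on both days.

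**Figure D4:**
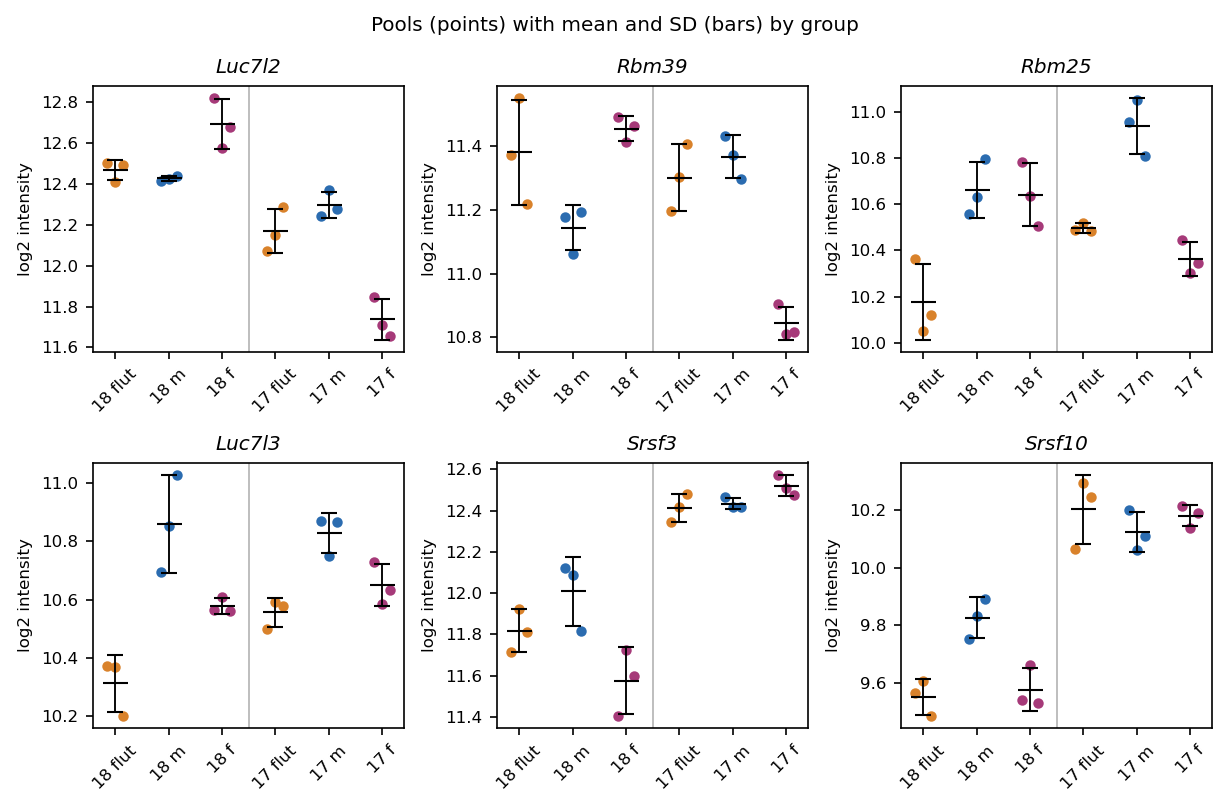
Each point is a pool, horizontal bars are the group mean and vertical bars the SD of 3 pools, on a log2 axis that does not start at 0. GD18 groups are left of the line and GD17 groups right of it; 17 f is the lowest group of Luc7l2 and Rbm39, and 18 f the highest of both.

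With an indicator for 17 m 3, 17 f 2 and 17 f 3, the pools high in pancreas transcripts, the GD17 sex differences were 0.53 for Luc7l2, 0.49 for Rbm39 and 0.52 for Rbm25, all called, and leaving out any single pool also left 3 calls. With these 3 pools left out together, which leaves 1 pool in 17 f whose spread is taken from the other groups, the differences were 0.46 (adjusted p = 0.0905), 0.50 (adjusted p = 0.0981) and 0.56 (adjusted p = 0.0965), none of them called in limma (4 of the 38 genes at an unadjusted p under 0.05). In that fit the interactions of Luc7l2 (-0.72, adjusted p = 0.0155) and Rbm39 (-0.81, adjusted p = 0.0145) were called and those of Rbm25 (-0.54) and Srsf3 (0.57) were not. The Srsf3 call at GD18 was lost without 18 m 1, 18 m 2, 18 f 1 or 18 f 3 and with the mean of all probe sets, and without 18 m 3 the count was 11 genes in place of 1. Without 18 m 3 and 18 flut 3, Srsf3 differed by 0.53 (adjusted p = 0.00647).

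Other genes outside the 38 showed the sign pattern of Luc7l2 across the 2 days. Rbm6, an RNA-binding protein related to Rbm5, was 0.54 higher in 17 m than in 17 f and differed by -0.35 in 18 m minus 18 f (interaction -0.89, adjusted p = 6.7e-05). Fubp1, which binds single-stranded DNA and RNA, was 0.64 higher in 17 m than in 17 f, with an interaction of -0.91. Rian, an imprinted nuclear RNA, was 0.63 higher in 17 m, and at GD18 it differed by -0.45, with an interaction of -1.08 (adjusted p = 1.79e-04). Of the 9 nuclear noncoding RNAs, 2 were called higher in 17 m minus 17 f, 1 lower in 18 m minus 18 f, 2 lower in 17 flut minus 17 m and 0 in either direction in 18 flut minus 18 m (Malat1 and Neat1 were not called in any of these 4), and their mean deviation was 0.42 in 18 m 3, against 0.08 and 0.04 in the other 18 m pools.

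Probe sets of the same gene often differed in whether they were called. The 38 genes had 151 probe sets, 9 genes had 1 and 29 had several. In 26 of the 29 the calls differed in at least 1 of the 7 pairwise comparisons, and in 5 of the 29 they were opposite. A probe set that just misses the threshold is enough for differing calls, and the same count over all genes with several probe sets was not made. Over all 151, 0 were called higher and 19 lower in 17 flut minus 17 m (1.28% and 2.28% of all probe sets), 2 higher and 19 lower in 18 flut minus 18 m (0.735% and 3.21%), 22 higher and 0 lower in 17 m minus 17 f (3.60% and 0.493%), and 5 higher and 3 lower in 18 m minus 18 f (1.10% and 0.755%). These probe sets are not independent, since several can read 1 transcript and some share sequence.

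Hnrnpu, the scaffold attachment factor that binds nuclear RNA and chromatin, shows the point. Its probe set of highest mean was at 12.75, 11.84 and 12.40 in 18 flut, against 13.09, 12.63 and 13.27 in 18 m, and at 12.89, 12.51 and 12.49 in 18 f. At GD17 it was at 13.01, 12.95 and 12.75 in 17 flut, against 13.48, 13.29 and 13.14 in 17 m, and at 12.94, 13.16 and 13.18 in 17 f. Pools overlapped except between 17 flut and 17 m and between the days in females, and no sex, flutamide or day comparison was called. The probe set 1434390_at of the same gene was at 7.14, 7.12 and 7.16 in 18 flut, against 8.03, 8.08 and 8.25 in 18 m, and at 7.51, 7.56 and 7.44 in 18 f. At GD17 it was at 7.22, 7.19 and 7.40 in 17 flut, against 8.08, 7.96 and 7.76 in 17 m, and at 7.24, 7.31 and 7.45 in 17 f. Males not exposed to flutamide were above both other groups on both days in every pool. Differences were -0.66 in 17 flut minus 17 m, -0.98 in 18 flut minus 18 m, 0.60 in 17 m minus 17 f and 0.62 in 18 m minus 18 f, all called, and probe set 1434391_at was called in the same directions in all 4 (-0.32, -0.51, 0.30 and 0.32).

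Other genes had probe sets that were called in opposite directions. In 18 f minus 17 f this held for 5 genes, Luc7l2, Rbm25, Srsf11, Tra2a and Hnrnpr. For Luc7l2, 2 probe sets were called higher, both at 0.95, and 1 lower, at -0.17. For Tra2a, 4 were higher, by 0.40 to 1.00, while the probe set of highest mean was called lower at -0.46, and the mean of all its probe sets was 0.41 higher (adjusted p = 4.86e-05). Rbm39 was more even between days in females, with 8 of 12 called higher and none lower, beside 7423 of all 45037 probe sets called higher. Between the sexes its 12 probe sets were less even. They differed by 0.03 to 0.52 in 17 m minus 17 f, with 6 called higher and 0 lower. In 18 m minus 18 f they ranged from -0.38 to 0.22, on both sides of 0, with 2 called lower and 0 higher. Hnrnpr, which is close to Syncrip, had 1 probe set (1438807_at) at 9.57, 9.91 and 9.50 in 18 m, against 9.98, 10.11 and 10.20 in 18 f, and at 10.43, 10.51 and 10.40 in 17 m, against 9.87, 9.71 and 9.70 in 17 f. The sexes were apart on both days but in opposite order, with differences of -0.44 and 0.69, both called, and an interaction of -1.13 (adjusted p = 1.16e-04), while its probe set of highest mean was called in neither sex comparison. For Luc7l3, a further probe set (1451485_at) fell with flutamide by 0.52 at GD17 and by 0.90 at GD18, both called. At GD18 this probe set was at 9.528, 9.322 and 9.342 in 18 flut, against 10.132, 10.085 and 10.679 in 18 m. Pool 18 m 3 was thus well above the other male pools and raised the GD18 difference. Which transcripts each probe set reads was not examined here.

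**Figure D5:**
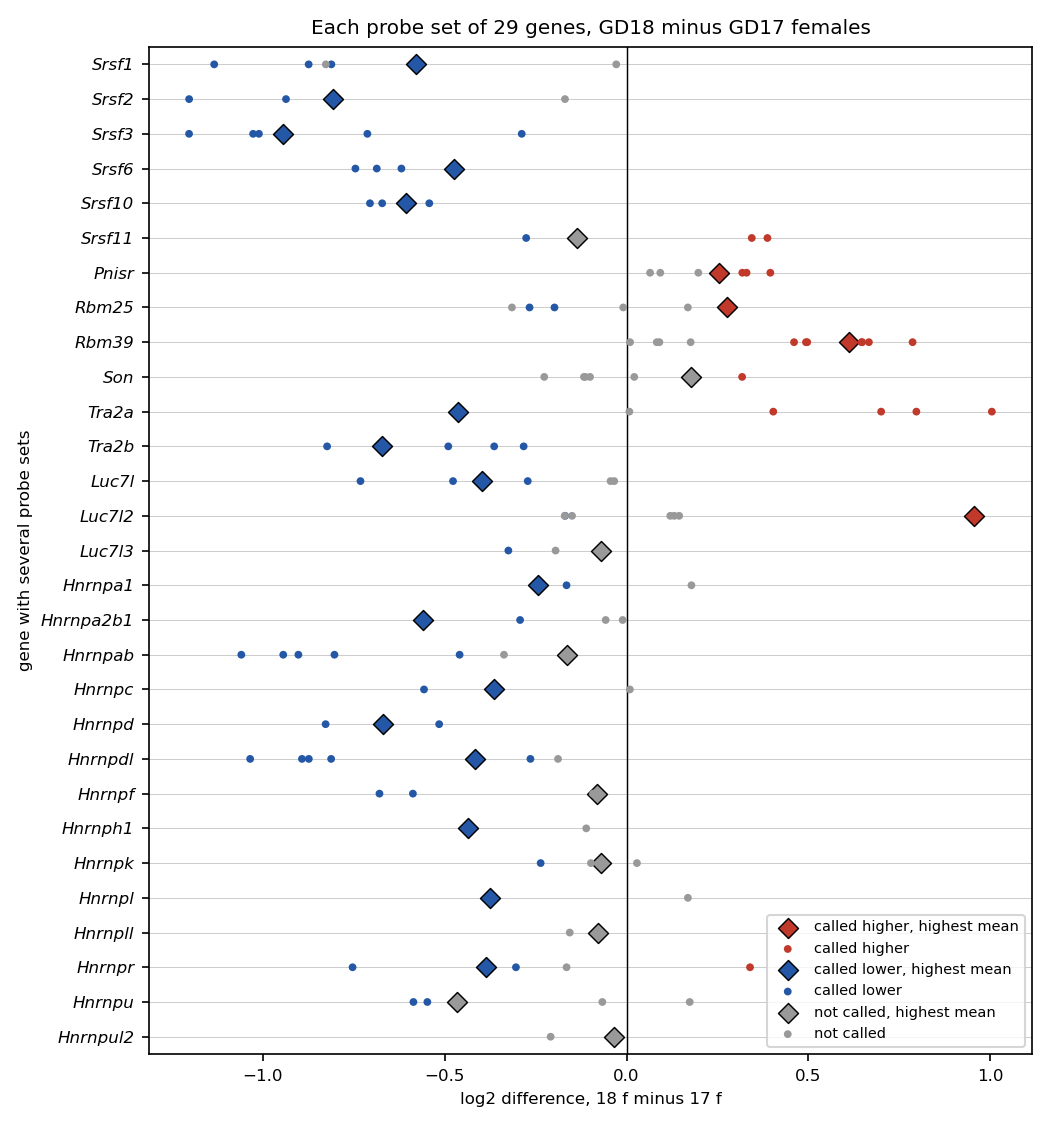
Each point is a probe set of the 29 genes with several, placed by its log2 difference in 18 f minus 17 f; diamonds are the probe sets of highest mean and small points the others. Red points are called higher and blue called lower; Tra2a has 4 red points at 0.40 to 1.00 and a blue diamond at -0.46.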

How the data were processed

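Total RNA of pooled fetal lungs was hybridized to 18 Affymetrix MOE430 2.0 arrays, 3 per group. The deposited intensity of each probe set had been background-corrected, normalized and summarized by the authors with RMA, and the submitters' processing notes name limma. The deposited values are linear (6.61 to 30228), whereas the plan had assumed log2 values, so their log2 was taken first. Of 45101 probe sets, 64 AFFX controls were left out and 45037 tested. Of these, 34945 carried 1 symbol, 932 several and 9160 none in the 2016 annotation of the platform. Probe sets with several symbols were given to no gene.

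The 6 group means were estimated in 1 linear model with limma 3.58.1 in R 4.3.3 (12 residual degrees of freedom), and p-values were adjusted by Benjamini-Hochberg over all 45037 probe sets within a comparison. Differences are the first-named group minus the second. The SE is that of the model and n is 3 pools. The number of arrays limits the precision.

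The 38 genes, the gene lists and several alternatives were chosen with earlier results of these data known. Values in every pool are given for Luc7l2, Luc7l3, Rbm25, Rbm39 and Hnrnpu, for genes called in a sex or flutamide comparison and for the 3 genes with the smallest adjusted p in each pairwise comparison. Lists name up to 4 genes with the smallest p and any nuclear RNA. Probe sets singled out by number and genes named for absent or opposite calls were picked after their values were seen. Alternatives changed the normalization, weighted the arrays, dropped dim probe sets, took a trended prior, fitted only the groups compared, tested 1 value per gene, blocked on the replicate number, set aside the doubted pools or left out single pools; leaving out 17 f 2, 17 f 3 and 17 m 3 together was added after seeing the data. Erythroid markers (7 measured) gave 0 to 1 genes called higher and 0 to 5 lower in the 7 pairwise comparisons, and of the 4 measured sex-linked genes 3 were higher and 1 lower in males on both days.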

Additional observations from a re-analysis of the deposited data

Results flagged for a closer look

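Of the 38 genes, 4 differed between days in their sex difference, by the test of the interaction in limma: Luc7l2 (-0.82), Rbm39 (-0.83) and Rbm25 (-0.55), whose sex difference was lower at GD18 than at GD17, and Srsf3 (0.52), whose sex difference was higher at GD18. Without 18 m 3 and 18 flut 3 the values were -0.83, -0.86, -0.62 and 0.62, all called. With only the 4 groups involved in the fit, Srsf3 was no longer called (adjusted p = 0.0593). With the mean of all probe sets, and without 17 m 2 or 18 f 1, neither Rbm25 nor Srsf3 was called. Rbm25 was also lost without 17 f 2, and Srsf3 without 18 m 1 or 18 m 2. Without 17 f 2, 17 f 3 and 17 m 3 together, Luc7l2 and Rbm39 were called and Rbm25 and Srsf3 were not.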

How the results depend on the processing

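Counts are of the 38 genes called. With 1 pool left out at a time they ranged from 3 to 3 in 17 m minus 17 f, 0 to 11 in 18 m minus 18 f, 0 to 1 in 17 flut minus 17 m, 2 to 6 in 18 flut minus 18 m, 19 to 22 in 18 m minus 17 m, 23 to 25 in 18 f minus 17 f, 15 to 19 in 18 flut minus 17 flut, 2 to 7 in the interaction of sex with day and 0 to 0 in that of flutamide with day. The 6 in 18 flut minus 18 m and the 7 in the sex interaction came without 18 m 3; the count in 18 flut minus 18 m was 2 without 18 flut 2 or 18 flut 3, and that of the sex interaction 2 without 17 m 2 or 18 f 1.

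In 18 m minus 18 f the count of 1 became 2 with quantile normalization or cyclic loess, 9 with the filter on dim probe sets, 14 with array weights, 6 with a trended robust prior, 11 without 18 m 3 and 18 flut 3, and 0 with only the groups compared. In 17 flut minus 17 m the count of 1 became 2 with the filter, 3 with weights, 2 with the trended prior, 5 with the mean of all probe sets of a gene and 3 without both pools. In 18 flut minus 18 m the count of 4 became 2 with quantile normalization, cyclic loess or the replicate block, 7 with the filter, 13 with weights and 0 with only the groups compared. In 18 m minus 17 m the count of 23 became 6 with only the groups compared, and in the sex interaction the count of 4 became 8 with weights and 7 without both pools. Without 17 f 2, 17 f 3 and 17 m 3, a choice made after seeing the data, the count became 0 in 17 m minus 17 f, 0 in 18 m minus 18 f, 2 in 18 flut minus 18 m and 2 in the sex interaction. With the mean of all probe sets, directions turned for Rbm25 (-0.057) and Tra2a (0.41) in 18 f minus 17 f and for Luc7l2 (-0.035) and Tra2a (0.10) in 18 flut minus 17 flut. The cause was not tested.

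Among named genes, 1256 values stayed on their side of the threshold under the other alternatives, 102 lost the call and 27 gained it. With 1 pool left out, 574 stayed, 88 lost the call and 4 gained it. A further 4 values turned direction under the other alternatives and are in none of these counts. Of these, Tra2a between days in females stayed called, lower in the main fit and higher with the mean of all probe sets. The other values that stayed called kept their direction, while values that stayed not called could change it. Nothing in the labels says that a replicate number marks a shared litter, and same-numbered pools of 17 m and 17 f deviated with correlations of 0.361, -0.315 and 0.373, so the replicate block was not taken as a pairing; besides the count given, it moved no count by over 1.5 times.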
